A study of Homo sapiens with 24 samples.

Results

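A set of 8 genes was examined that hold, in their annotated span, a genomic site resembling the target of the single guide RNA (sgRNA) used to tag TRPS1: FTO, EFR3A, DENND5A, AMPD3, PAK1, USP2-AS1, KCNH8 and QDPR. They are 8 of the 60605 genes in the count table, and all 8 passed the filter on low counts that left 22326 genes for testing. They were listed for their sites, with earlier results of these data known. ASAP1 and ENSG00000288597, each with a further site of the same kind, are not among them. Nor are ENSG00000287069 and ENSG00000255097, which overlap the sites in KCNH8 and DENND5A. The site of each of the 8 genes has an NGG protospacer-adjacent motif (PAM, the bases Cas9 needs beside its target). It has 2 or 3 mismatches to the sgRNA on the hg38 genome. The question put to the data was whether any of these genes was transcribed less in one clone than in the other clones.

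PRO-seq, which sequences the 3′ ends of nascent RNA and so measures ongoing transcription, was performed in Clones 28, 35 and 39 of T47D cells, a line of luminal breast cancer. Every group carried TRPS1 with an inducible degron tag, and no library of untagged parental cells was analysed here. Each clone was treated for 90 minutes with DMSO, the vehicle, or with 100 nM dTAG-13, a small molecule that brings a ubiquitin ligase to the tag and so has TRPS1 degraded. There were 4 replicates in each of the 6 groups, 24 libraries in all, from separate dishes collected at different times of a day. Per the study's methods, all 3 clones descend from cells of one earlier clone that was transfected again with a plasmid for Cas9 and the sgRNA together with a linear donor, and each also carries disrupted copies of TRPS1. Each line is 1 clone, so a difference between clones is a difference between these lines, and an edit that all 3 shared would not appear as a difference between them.

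Cas9 cuts DNA where the sgRNA pairs with the strand opposite a PAM, and it can also cut at imperfect matches, usually less well when the mismatches lie close to the PAM. Repair of a cut can leave small insertions or deletions or, less often, larger rearrangements. A small change inside an intron commonly leaves transcription through the gene as it was, whereas a deletion that takes in a promoter can lower it. PRO-seq counts over a gene add up all copies of that gene in the cell. The number of copies in T47D was not measured here, and the counts hold no reads in which an edit could be seen.

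A search of hg38 found the exact TRPS1 target, 0 sites with 1 mismatch, 1 site with 2 mismatches and 16 sites with 3 mismatches. Of the 16, 9 overlapped an annotated gene, 7 a protein-coding gene and 1 an exon. The site with 2 mismatches was the one in FTO. The sites of the genes on chromosomes other than 8 are shown because they are what the genes have in common. Each is written 5′ to 3′ on the strand of the match, with the mismatched bases and then the PAM in capitals.
FTO, chr16:53888648-53888667, plus strand: ttaGctttgcagatatgCtcTGG
DENND5A, chr11:9244685-9244704, plus strand: ttatTtttgGagataAggtcTGG
AMPD3, chr11:10353453-10353472, plus strand: ttTtctttTcagataGggtcCGG
PAK1, chr11:77450422-77450441, minus strand: ttCCctttgcaAatatggtcAGG
USP2-AS1, chr11:119613169-119613188, minus strand: GtGtctttgcagatatgAtcAGG
KCNH8, chr3:19472312-19472331, plus strand: ttTtctttgGTgatatggtcTGG
QDPR, chr4:17496000-17496019, minus strand: ttTtTtttgGagatatggtcTGG

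Counted from 1 at the 5′ end of the 20-base match, the mismatches lay at positions 4 and 18 in FTO, 5, 10 and 16 in DENND5A, and 3, 9 and 16 in AMPD3. They lay at positions 3, 4 and 12 in PAK1, 1, 3 and 18 in USP2-AS1, 3, 10 and 11 in KCNH8, and 3, 5 and 10 in QDPR. In EFR3A they lay at 7, 10 and 18. Every one of the 8 sites thus had at least 1 mismatch among the 12 bases next to the PAM. Position 3 was mismatched in 5 of the 8 sites, and the sites in USP2-AS1 and FTO had the longest runs of matched bases, at 14 and 13.

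The sites were intronic with the exception of EFR3A. In GENCODE release 44, the FTO site lay in intron 6 of 9 exons on chromosome 16, 187 kb from the start of the gene, with 59.1% of the span still downstream. The sites in DENND5A and PAK1 were both in intron 1, with 83.3% and 84.1% of the span downstream. The AMPD3 site was upstream of the representative transcript but inside introns of longer ones, 45.1 kb from the annotated start. The QDPR site was in intron 4 of 7 exons with 68.8% of the span downstream. The sites in KCNH8 (intron 11 of 16 exons) and USP2-AS1 (intron 4 of 5 exons) lay late, with 16.4% and 15.2% downstream. The EFR3A site, at chr8:131986236-131986255, was in coding exon 17 of 23.

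**Figure D1:**
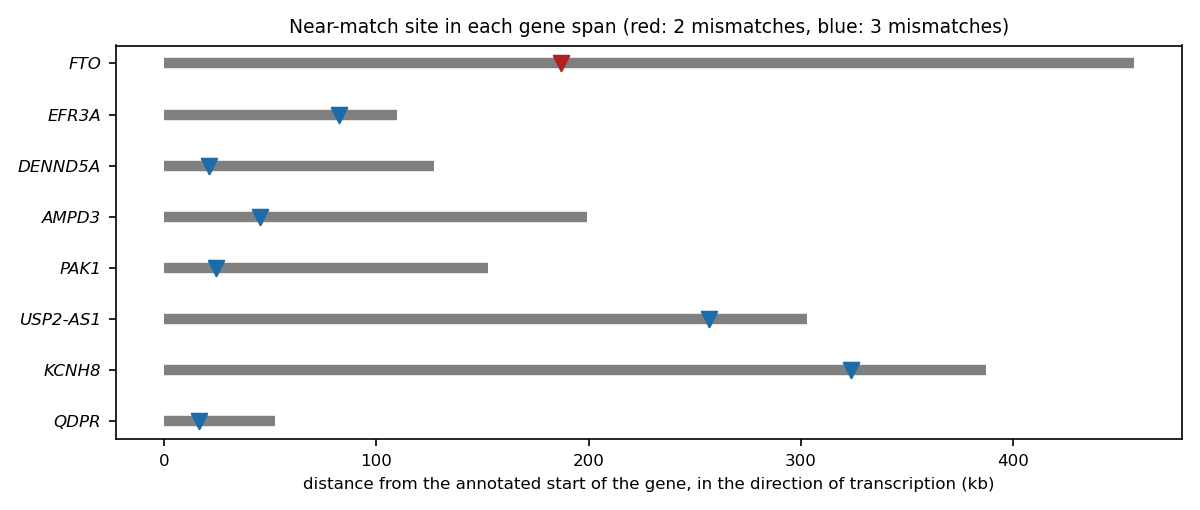
Position of the near-match site in each of the 8 genes. The grey bar is the annotated span from the start of the gene in the direction of transcription, in kb, and the triangle is the site (red for 2 mismatches, blue for 3). The sites in KCNH8 and USP2-AS1 lie near the end of the span, and those in DENND5A and PAK1 have the largest share of it downstream. In kb the QDPR site is nearest the start, at 16.2 kb.

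The libraries held 3226718 to 9575803 counted reads (median 5042122). TRPS1, whose protein and not its gene is removed by dTAG-13, stood at 5183 to 9296 CPM (the count scaled to library size, with library sizes adjusted by the trimmed mean of M values) and so does not check the treatment. All 9 luminal markers (among them ESR1, PGR and GATA3) were transcribed, with summed levels of 3949 to 6248 CPM over the groups. The 10 markers of basal, mesenchymal, leukocyte and endothelial cells summed to 30.5 to 46.1 CPM, and 5 of them passed the filter. The highest were basal TP63, at 5.99 to 22.1 CPM, and mesenchymal COL1A1, at 6.90 to 15.5 CPM, both with reads in every library. Basal KRT5 was at 0 in 16 of the 24 libraries. In bulk libraries such as these, fewer transcribing cells and less transcription per cell cannot be told apart.

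Per length of gene, the order of the levels was EFR3A (mean over the 24 libraries 1052 CPM per Mb of span), FTO (678), PAK1 (625), DENND5A (501), QDPR (430), AMPD3 (59.3), USP2-AS1 (54.0) and KCNH8 (38.0). The libraries of EFR3A, at 858 to 1226 CPM per Mb, lay above those of FTO, at 566 to 815. From FTO to QDPR each gene overlapped its neighbour in this order, as did AMPD3, USP2-AS1 and KCNH8. QDPR, whose lowest library was at 289 CPM per Mb, lay above AMPD3, whose highest was at 92.5. AMPD3, USP2-AS1, KCNH8 and QDPR were also the genes with the fewest reads, at 27 to 157 counts per library, against at least 186 for the others, so their values have the larger counting error.

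In DMSO, the levels of 5 of the 8 genes differed among the clones (AMPD3, PAK1, USP2-AS1, KCNH8 and QDPR; quasi-likelihood F test of edgeR, Benjamini-Hochberg adjusted over all genes tested, threshold 0.1), where 28.5% of all genes tested did. Without replicate 4 of Clone 28 in DMSO, or without replicate 1 of Clone 39 in DMSO, the number was 3. Each clone was then set against the mean of the other clones. The 3 differences of a gene are therefore not independent, since a low or high clone also shifts the values of the others the opposite way. In Clone 28, USP2-AS1 and QDPR were lower (2 of 8, background 7.40%) and KCNH8 higher (1 of 8, background 9.67%). In Clone 35, AMPD3 alone was lower (1 of 8, background 4.86%) and 0 of 8 were higher (background 7.92%). In Clone 39, KCNH8 was lower (1 of 8, background 15.0%), and AMPD3, QDPR, PAK1, USP2-AS1 and EFR3A were higher (5 of 8, background 13.1%), where without replicate 3 of Clone 39 the calls in both directions fell from 6 to 3. In dTAG-13, Clone 28 had 2 of 8 lower (background 7.66%) and 1 higher (10.2%), Clone 35 had 1 lower (4.32%) and 0 higher (7.61%), and Clone 39 had 1 lower (14.7%) and 3 higher (12.2%).

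Only AMPD3 had, in DMSO, one clone with all 4 libraries below those of the other clones (1 of 8, background 10.1% over the 3 clones), and QDPR alone had one above (1 of 8, background 8.64%). In dTAG-13 AMPD3 and KCNH8 had one clone below (2 of 8, background 11.3%) and QDPR one above (1 of 8, background 9.74%). The median log2 difference in DMSO over the 8 genes was −0.08 in Clone 28, −0.07 in Clone 35 and 0.16 in Clone 39, beside −0.00017, 0.0085 and 0.0026 over all genes tested.

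None of the 8 genes was near 0 in any library, the fewest counts being the 27 of AMPD3. For 7 of the 8 genes, the 95% interval of the log2 difference lay above −1, a halving, in all 3 clones, in DMSO and again in dTAG-13. The gene whose interval reached a halving was AMPD3 in Clone 35. Where a gene has several copies, lost transcription from some of them can amount to less than a halving. The number of copies was not measured, so the comparison with a halving does not address such a loss.

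**Figure D2:**
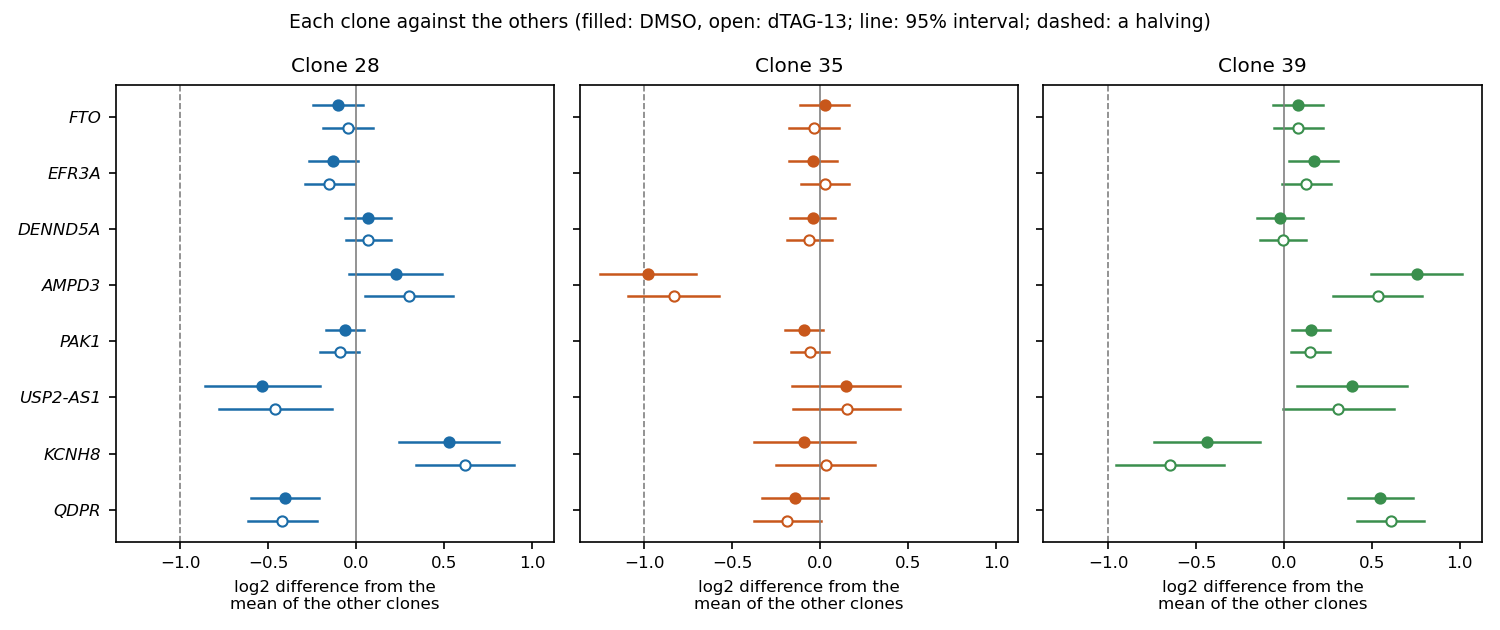
Log2 difference of each clone from the mean of the other clones for the 8 genes, with 95% intervals from the edgeR fit (filled circles DMSO, open circles dTAG-13, 4 libraries per group). The interval of AMPD3 in Clone 35 alone reaches the dashed line at −1, at −1.25 to −0.70 in DMSO, while the values of FTO, EFR3A, DENND5A and PAK1 lie between −0.15 and 0.17.

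FTO, which encodes an enzyme that removes methyl groups from adenosine in RNA, holds the site with the fewest mismatches. In DMSO its level was 316, 295, 258 and 259 CPM in replicates 1 to 4 of Clone 28, 335, 313, 281 and 268 CPM in Clone 35, and 348, 300, 284 and 295 CPM in Clone 39. The 3 clones overlapped, with Clone 28 the lowest within each replicate number. The log2 difference from the other clones was −0.10 in Clone 28 (95% interval −0.25 to 0.04), 0.03 in Clone 35 (−0.12 to 0.17) and 0.08 in Clone 39 (−0.06 to 0.22), none past the threshold in this fit, which has no term for the replicate number. With 1021 to 2997 counts per library, the lowest bound of the 3 intervals was a fold of 0.843, in Clone 28. Replicate 1 was the highest library of FTO in 6 of 6 groups. With a term for the replicate number, FTO passed as lower in Clone 28 in DMSO (edgeR adjusted p = 0.027) but not in dTAG-13 (0.400). It also passed as higher in Clone 39 in DMSO (0.087) and dTAG-13 (0.076). Whether the number is shared across clones is not given in the labels.

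AMPD3 encodes an AMP deaminase, an enzyme of purine nucleotide metabolism that converts AMP to IMP. In DMSO it stood at 15.4, 10.3, 11.2 and 10.2 CPM in Clone 28, at 6.44, 5.75, 6.81 and 7.60 CPM in Clone 35, and at 14.8, 16.0, 16.1 and 13.2 CPM in Clone 39. Every library of Clone 35 was below every library of the other clones, a pattern that 0.905% of all genes tested had for this clone. The mean of Clone 35 was 6.65 ± 0.77 CPM (SD, n = 4), against 11.8 ± 2.47 in Clone 28 and 15.0 ± 1.34 in Clone 39. The log2 difference of Clone 35 from the others was −0.98 ± 0.14 (SE; edgeR adjusted p = 2.94e-06), a fold of 0.507 with an interval of 0.419 to 0.614. Counted from the lowest, it ranked 162 of the 22326 genes in that comparison. It ranged from −1.06 to −0.91 when each library was left out in turn.

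The same order of the clones held for AMPD3 in dTAG-13. In dTAG-13 it stood at 9.17, 6.70, 8.58 and 8.18 CPM in Clone 35, at 12.9 to 15.4 CPM in Clone 28 and at 13.2 to 18.4 CPM in Clone 39. Clone 35 was again below every other library (0.927% of genes, and 0.237% in both treatments). The log2 difference was −0.83 ± 0.13 (edgeR adjusted p = 1.66e-05). Clone 39 was itself higher than the mean of the others, by 0.75 ± 0.13 in DMSO (adjusted p = 1.94e-05) and by 0.53 ± 0.12 in dTAG-13 (adjusted p = 0.0014), and Clone 28 lay between. That mean includes the low Clone 35, so the values of Clone 39 partly restate it. Clone 35 held 27 to 55 counts of AMPD3 per library in DMSO.

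QDPR encodes dihydropteridine reductase, which regenerates tetrahydrobiopterin, the cofactor of the aromatic amino acid hydroxylases. In DMSO its level was 18.6, 19.1, 20.7 and 17.5 CPM in Clone 28, 23.1, 22.0, 20.4 and 20.5 CPM in Clone 35, and 30.5, 26.5, 31.6 and 29.2 CPM in Clone 39. Clone 39 was above every library of the other clones in DMSO (5.47% of genes) and in dTAG-13 (5.65%, and 2.96% in both), and Clones 28 and 35 overlapped. Mean levels in DMSO were 19.0 CPM in Clone 28, 21.5 in Clone 35 and 29.5 in Clone 39, so Clone 28 was set against an average that includes the high Clone 39. The log2 difference was 0.55 ± 0.09 in Clone 39 (edgeR adjusted p = 1.67e-05) and −0.41 ± 0.10 in Clone 28 (adjusted p = 0.0030). In dTAG-13 the values were 0.61 ± 0.09 (adjusted p = 4.30e-06) and −0.42 ± 0.10 (adjusted p = 0.0019). Clone 35 did not pass the threshold (−0.14, interval −0.33 to 0.05, in DMSO).

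KCNH8 encodes a voltage-gated potassium channel subunit of the ether-a-go-go family. In DMSO it stood at 19.6, 21.4, 14.0 and 18.3 CPM in Clone 28, at 15.3, 14.5, 12.2 and 13.3 CPM in Clone 35, and at 13.4, 15.4, 9.81 and 8.39 CPM in Clone 39. The clones overlapped in DMSO. Clone 28 was higher than the others by a log2 difference of 0.53 ± 0.14 (edgeR adjusted p = 0.0085), and Clone 39 was lower, at −0.44 ± 0.15 (adjusted p = 0.029).

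The lower level of KCNH8 in Clone 39 in DMSO rested on 2 libraries. Without replicate 3 of Clone 39 the log2 difference was −0.37 (edgeR adjusted p = 0.108), and without replicate 4 it was −0.29 (adjusted p = 0.201). In dTAG-13 the 4 libraries of Clone 39 lay close together, at 10.5, 10.3, 10.6 and 10.8 CPM, below every library of the other clones (12.6 to 23.9 CPM), as 8.32% of genes did for this clone. The difference there was −0.65 ± 0.15 (adjusted p = 0.0014), and that of Clone 28 was 0.62 ± 0.14 (adjusted p = 0.0015). Across the 24 libraries KCNH8 and QDPR ran in opposite directions (Pearson's r = −0.76 of log2 levels), a description over libraries that share clones.

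EFR3A, DENND5A and PAK1 act at membranes and the cytoskeleton. EFR3A anchors the phosphatidylinositol 4-kinase complex at the plasma membrane, DENND5A is a regulator of Rab GTPases in membrane traffic, and PAK1 is a kinase activated by RAC1 and CDC42. EFR3A, the one gene with the site in an exon, stood at 121, 115, 94.0 and 102 CPM in Clone 28 in DMSO, at 120, 120, 103 and 107 CPM in Clone 35, and at 134, 132, 115 and 113 CPM in Clone 39. The clones overlapped, and replicates 1 and 2 were above replicates 3 and 4 in 6 of 6 groups. Its log2 difference was −0.13 (interval −0.27 to 0.0095) in Clone 28, −0.04 (−0.18 to 0.10) in Clone 35 and 0.17 ± 0.07 in Clone 39 (edgeR adjusted p = 0.070). In this fit, which has no term for the replicate number, the call in Clone 39 was lost when any of 6 libraries was left out (largest adjusted p = 0.299, without replicate 1 of Clone 39). In dTAG-13 the value of 0.13 did not pass the threshold. With a term for the replicate number, EFR3A passed as higher in Clone 39 in DMSO (edgeR adjusted p = 0.0014) and dTAG-13 (0.023). It also passed as lower in Clone 28 (0.021 and 0.0045). The labels do not say that the number is shared across clones.

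DENND5A varied least among the clones. In DMSO it stood at 62.6, 67.2, 59.8 and 71.3 CPM in Clone 28, at 55.8, 68.5, 62.4 and 61.4 CPM in Clone 35, and at 57.1, 63.1, 66.2 and 64.9 CPM in Clone 39. The groups overlapped throughout, and the log2 differences were 0.07, −0.04 and −0.02, with intervals that together ran from −0.17 to 0.20.

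PAK1 stood at 89.0, 100.3, 90.6 and 95.5 CPM in Clone 28 in DMSO, at 98.5, 94.0, 90.5 and 88.6 CPM in Clone 35, and at 102, 105, 112 and 97.7 CPM in Clone 39. Clone 39 had the highest mean, but the groups overlapped. The log2 difference in Clone 39 was 0.15 ± 0.05 in DMSO (edgeR adjusted p = 0.033) and 0.15 ± 0.05 in dTAG-13 (adjusted p = 0.041), a fold of 1.11 in each. The call in DMSO was lost without replicate 3 of Clone 39 (adjusted p = 0.163), and that in dTAG-13 without its replicate 4 (adjusted p = 0.186).

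USP2-AS1 is a long noncoding RNA gene that overlaps USP2, which encodes a deubiquitinating enzyme, on the opposite strand. In DMSO it stood at 18.4, 10.1, 11.6 and 10.8 CPM in Clone 28, at 20.5, 17.4, 15.0 and 16.6 CPM in Clone 35, and at 25.5, 16.2, 20.2 and 15.0 CPM in Clone 39. In Clone 28, 3 of the 4 libraries were below every library of the other clones, and replicate 1 lay within their range. The log2 difference of Clone 28 was −0.53 ± 0.16 in DMSO (edgeR adjusted p = 0.024) and −0.46 ± 0.16 in dTAG-13 (adjusted p = 0.046). The call in DMSO was lost without replicate 2 (adjusted p = 0.126) or replicate 4 of Clone 28 (adjusted p = 0.117), and that in dTAG-13 without its replicate 2 (adjusted p = 0.226). In Clone 39 the difference of 0.39 ± 0.15 in DMSO (adjusted p = 0.068) was lost when any of 7 libraries was left out, and it did not pass in dTAG-13.

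USP2 itself was lower in Clone 28, by a log2 difference of −0.64 ± 0.12 (edgeR adjusted p = 3.11e-04), and higher in Clone 35, by 0.50 ± 0.11 (adjusted p = 0.0027), where USP2-AS1 had 0.15 and did not pass. NECTIN1, which overlaps USP2-AS1 in part and had 116 CPM, had log2 differences of 0.02, −0.07 and 0.05 in Clones 28, 35 and 39, none past the threshold. The strand setting of the counting is not given in the sources used here. Genes lying inside another gene on the opposite strand had more counts than their host in every library in 182 of 1504 pairs, against 12 of 1741 pairs on the same strand. An unstranded count over whole genes could not give a nested gene more reads than its host. For pairs on the same strand a stranded count over whole genes could not either, yet 12 pairs had this. The values therefore do not settle the strand setting.

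**Figure D3:**
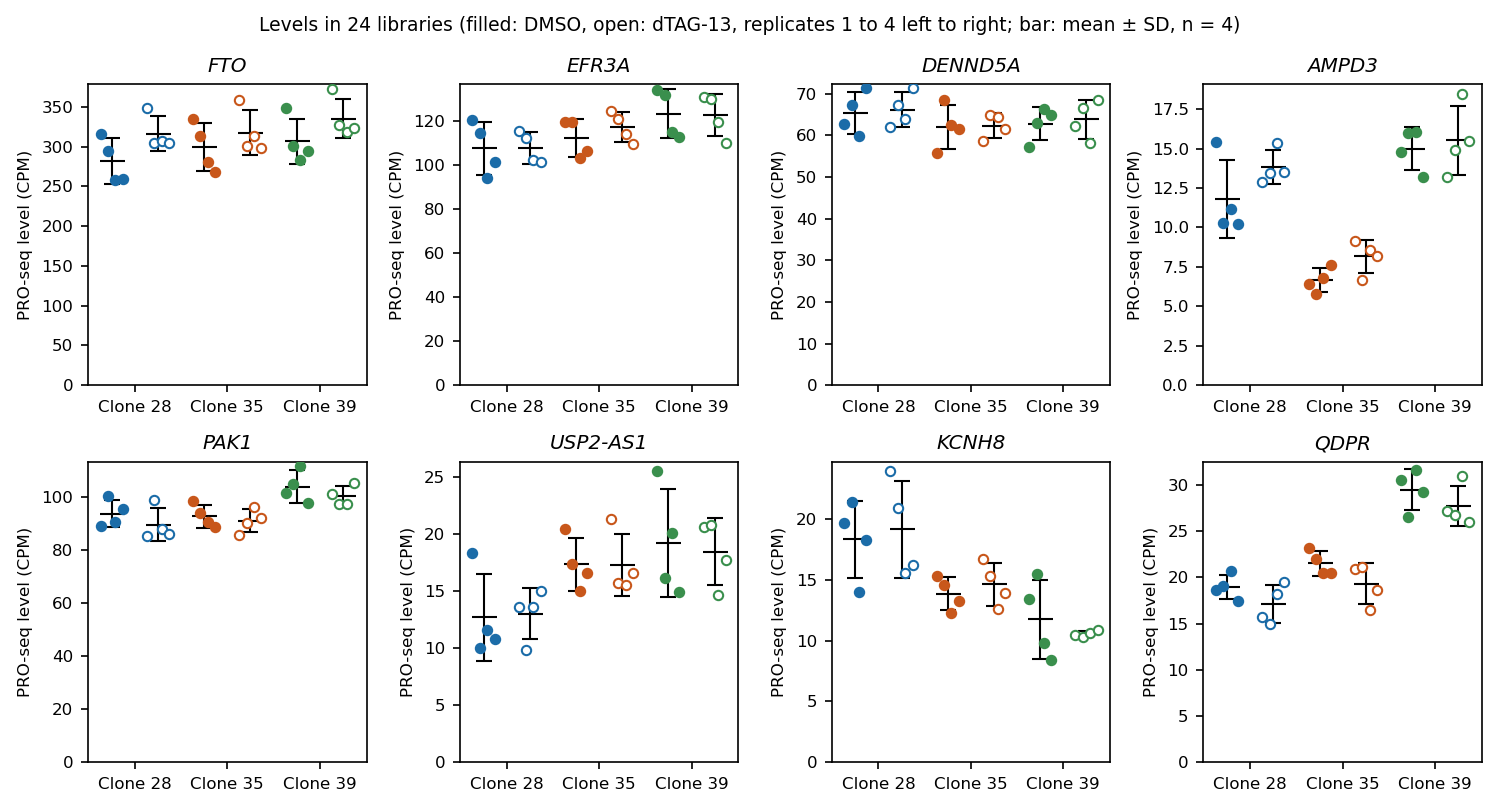
Level of the 8 genes in each of the 24 libraries, in CPM on linear axes that start at 0, by clone (filled circles DMSO, open circles dTAG-13, replicates 1 to 4 from left to right in each group). Black bars are the mean ± SD of 4 libraries. AMPD3 in Clone 35, at 5.75 to 9.17 CPM, lies below every other library, and QDPR in Clone 39, at 26.0 to 31.6 CPM, above every other.

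Treatment with dTAG-13 moved none of the 8 genes past the threshold in the fit of all 24 libraries (edgeR, 0 of 8, background 0.551%). DESeq2 also called 0. At an unadjusted p under 0.05 in the edgeR fit there were 3 of 8, against 1411 of the 22326 genes tested. These were FTO with a log2 difference of 0.13 ± 0.04 (dTAG-13 minus DMSO), AMPD3 with 0.19 ± 0.08 and QDPR with −0.13 ± 0.06. With a term for each of the 12 pairs of libraries that share a clone and a replicate number, FTO did pass, at 0.13 (edgeR adjusted p = 6.50e-04), where 2.33% of all genes did, and it rose in 11 of 12 pairs. AMPD3 was higher in 9 of 12 pairs and QDPR lower in 10, and neither passed in that fit (adjusted p = 0.419 and 0.381). The response did not differ between the clones for any of the 8 (0 of 8, background 0%), and DESeq2 called 0. At an unadjusted p under 0.05 in the edgeR fit there were 0 of 8, against 407 of the 22326 genes tested.

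In dTAG-13, FTO stood at 349, 305, 307 and 305 CPM in Clone 28, at 359, 300, 314 and 298 CPM in Clone 35, and at 372, 327, 319 and 324 CPM in Clone 39. Its groups overlapped those in DMSO within each clone.

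Genes around the sites were then set beside the members, as a measure of how the surrounding stretch of chromosome differed between clones. Neighbours are tested genes that lie within 1 Mb of the site and do not overlap the member. AMPD3 had 22, of which 3 were lower in Clone 35 in DMSO (background 4.86%), with a median log2 difference of −0.09 (range −0.74 to 0.59) against 0.0085 over all genes tested. The nearest on either side were ADM, the gene of the peptide adrenomedullin, at −0.46 ± 0.24 (edgeR adjusted p = 0.296), and RNF141 at −0.06 ± 0.09 (adjusted p = 0.771). The AMPD3 difference of −0.98 was thus below all 22 neighbours, and the 3 that passed were LINC02709, SBF2-AS1 and ENSG00000255476. Their middles lay at −596 to −469 kb from the site, negative being towards the start of AMPD3.

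Of the 22 neighbours of AMPD3, 15 were below 0 in Clone 35 in DMSO. KCNH8, at −0.44 in Clone 39 in DMSO, also lay below all of its neighbours. All 5 of its neighbours were below 0 in Clone 39 in DMSO, at a median of −0.33 against 0.0026 over all genes tested, and 3 passed (background 15.0% lower). They were EFHB, at −0.39 ± 0.11 (edgeR adjusted p = 0.0094), RAB5A, a GTPase of early endosomes, at −0.33 ± 0.06 (adjusted p = 6.4e-05), and KAT2B, a histone acetyltransferase, at −0.32 ± 0.12 (adjusted p = 0.045). Against KCNH8 itself at −0.44, these 3 neighbours lay in the same direction, 441 to 625 kb from the site. In dTAG-13, where KCNH8 had −0.65, all 5 were again below 0 (median −0.31, against 0.0050 over all genes tested), but only RAB5A passed (1 of 5, background 14.7%), at −0.36 ± 0.06, and EFHB, the nearest, had −0.13 (adjusted p = 0.475). ENSG00000287069 overlaps KCNH8 on the opposite strand and also holds the site in an intron. In DMSO it had 0.08 in Clone 39 (edgeR adjusted p = 0.702). It was higher in Clone 28, at 0.59 (adjusted p = 3.02e-04), and lower in Clone 35, at −0.67 (adjusted p = 1.40e-04). KCNH8 itself had −0.09 in Clone 35 in DMSO and did not pass.

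QDPR had 8 neighbours, of which 0 passed in Clone 28 (median 0.01, background 7.40% lower and 9.67% higher) and 1 was higher in Clone 39 (median 0.11, background 13.1%), where QDPR had −0.41 and 0.55. LAP3, the nearest, had −0.27 ± 0.11 (edgeR adjusted p = 0.111) in Clone 28 and 0.20 ± 0.11 (adjusted p = 0.192) in Clone 39. Around USP2-AS1, 2 of 33 neighbours were lower (background 7.40%) and 1 higher (background 9.67%) in Clone 28, with a median of 0.0054 against −0.00017 over all genes tested.

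Members whose log2 differences were close to 0 also had neighbours past the threshold. DENND5A, at 0.07 in Clone 28 and −0.02 in Clone 39, ends 0.711 kb from SCUBE2, a secreted signalling protein gene, which had 1.41 ± 0.07 in Clone 28 (edgeR adjusted p = 9.68e-17) and −1.39 ± 0.08 in Clone 39 (adjusted p = 2.08e-15). FTO, at 0.08 in Clone 39, had 5 of 10 neighbours higher there (background 13.1%), with a median of 0.24 against 0.0026 over all genes tested, among them RBL2 at 0.60 ± 0.09 (adjusted p = 1.58e-06). In Clone 28, where FTO had −0.10, 3 of 10 were lower (background 7.40%) and 0 higher (9.67%). Their median was −0.23 against −0.00017 over all genes tested. RPGRIP1L, which overlaps FTO on the opposite strand, had −0.26 in Clone 28 (edgeR adjusted p = 0.014) and 0.24 in Clone 39 (adjusted p = 0.015). IRX3 and AKTIP, the nearest on either side, did not pass in any clone.

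**Figure D4:**
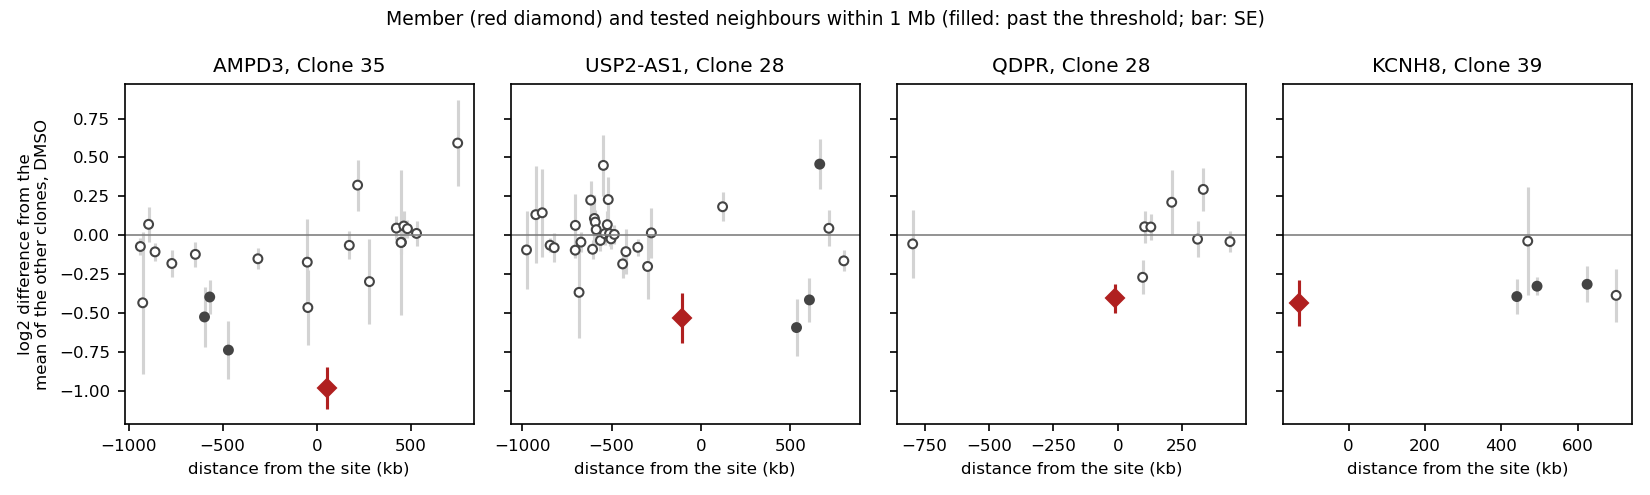
Log2 difference in DMSO of a gene (red diamond) and its tested neighbours (circles, filled where the adjusted p is under 0.1) against the distance of the middle of each gene from the site, in kb along the chromosome, with SE bars. The clone in each panel is one in which the gene was lower than the mean of the other clones. AMPD3 in Clone 35 lies below all 22 neighbours. KCNH8 in Clone 39 lies below all 5 of its neighbours, which are themselves below 0.

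Relatives of the 8 genes by family, complex or pathway were counted as a list of 35, of which 31 were tested. In DMSO, 14 of the 31 differed among the clones (45.2%, background 28.5%), and 0 responded to dTAG-13. In Clone 28, 6 were higher (background 9.67%) and 2 lower (background 7.40%). The largest changes were KCNH3, a channel of the KCNH8 family, at 1.51 ± 0.52 (edgeR adjusted p = 0.062), USP2 as above, and ALKBH5, an RNA demethylase of the family of FTO, at 0.49 ± 0.09 (adjusted p = 1.24e-04). KCNH3 had a mean of 4.41 CPM, and in dTAG-13 its difference in Clone 28 was −0.08 ± 0.65 (adjusted p = 0.965).

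In Clone 35, 3 of the 31 relatives were higher (background 7.92%) and 2 lower (background 4.86%), led by KCNH1 at −0.84 ± 0.05. In Clone 39, 6 were higher (background 13.1%) and 6 lower (background 15.0%), led by KCNH1 at 1.23 ± 0.05, ALKBH5 at −0.98 ± 0.10 and DENND5B, the paralog of DENND5A, at −0.38 ± 0.06. In this fit, which has no term for the replicate number, FTO and DENND5A did not pass in clones where ALKBH5 and DENND5B did. In dTAG-13, 3 relatives were higher and 3 lower in Clone 28 (background 10.2% and 7.66%), 4 and 1 in Clone 35 (7.61% and 4.32%), and 5 and 6 in Clone 39 (12.2% and 14.7%). These counts are set beside the shares of all genes tested as a description. AMPD2, the tested paralog of AMPD3, passed in no clone in DMSO.

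Over the 24 libraries, the genes whose log2 levels followed the members most closely were, for FTO, RERG (Pearson's r = 0.94) and MEGF9 (0.92), and for EFR3A, CHD9 (0.94) and AFF3 (0.94). For AMPD3 they were ELFN1-AS1 (0.90) and MIRLET7IHG (0.89), for QDPR, MVB12B (0.95) and PLXNA2 (0.94), and for KCNH8, CHRM3 (0.92) and PRKCE (0.91). For DENND5A they were ZNF584 (0.83) and HP1BP3 (0.72), for PAK1, DNAJC1 (0.85) and TENT5A (0.82), and for USP2-AS1, ENSG00000260729 (0.84) and ANXA7 (0.82). These values describe libraries that share clones, replicate numbers and depth. In deviations from the group means the likeness of FTO and RERG was 0.94, and that of AMPD3 and MIRLET7IHG was 0.20. That of AMPD3 and ELFN1-AS1, which had a mean of only 1.37 CPM, was 0.43.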

How the data were processed

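PRO-seq was performed in 3 clones under 2 treatments with 4 replicates each. The authors trimmed reads with cutadapt 1.8.1, removed duplicates by unique molecular identifiers, removed ribosomal reads, aligned the rest to hg38 with Bowtie2 2.4.4, handled alignments with SAMtools 1.9 (versions from the submitters' processing notes) and used bedtools for the counts per gene. The annotation and strand setting are not given in the sources used here. The deposited values are counts, whole reads per gene and library, not normalized. Of 60605 identifiers, 60463 matched GENCODE 44.

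Genes were kept by filterByExpr (minimum count 10), scaled by TMM and fitted with edgeR 4.0.16's robust quasi-likelihood test in R 4.3.3, with 6 group means, 18 residual degrees of freedom and Benjamini-Hochberg adjustment over 22326 genes. A contrast of a clone is its group mean minus the average of the other clones' on the log2 scale. The script was tested on simulated data. The sgRNA target was read from hg38 across the border into exon 3 of TRPS1 (12 intronic bases, then 8 exonic), and hg38 was searched for NGG sites with up to 3 mismatches. The members and the lists were chosen with earlier results of these data known. The named genes are the 8 members, the 2 genes most correlated with each, called relatives (at most 3 per contrast) and the nearest neighbours. Other called neighbours, RBL2, SCUBE2, RPGRIP1L, NECTIN1 and ENSG00000287069 as described, were named after their values were seen.

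DMSO and dTAG-13 libraries with the same clone and number were collected simultaneously per the labels. Their deviations from group means correlated at 0.0926 to 0.318 (mean 0.185 over 12 pairs). The main fit of the treatment had terms for clone and treatment only, and the pair was a block in an alternative fit. Replicates of a group differed by more than sampling noise (chi-square per degree of freedom at least 1.58). p-values measure the spread between dishes of a clone. Alternatives were RLE size factors, library totals, other filters, DESeq2 1.42.0, a threshold of 0.05, the replicate number as a block, one treatment's libraries only and leaving out each library.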

Additional observations from a re-analysis of the deposited data

Results flagged for a closer look

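FTO was set apart in 2 groups by 1 library far from the others. In Clone 28 with dTAG-13, replicate 1 was the highest at 349 CPM, and its gap to the next library was 0.936 of the range of the group. In Clone 39 with dTAG-13, replicate 1 was the highest at 372 CPM, with a gap of 0.837 of the range. Both exceeded the 95% critical value of Dixon's test for 4 libraries. Of the 48 groups tested (8 genes in 6 groups), chance alone would give about 2.4 such groups.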

How the results depend on the processing

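The labels do not say that the replicate number is shared across clones. Same-numbered libraries of 2 clones correlated at 0.0936 to 0.352, with a mean of 0.225 over 24 pairs. The mean for same-numbered DMSO and dTAG-13 libraries of a clone was 0.185. With the replicate number as a block, more genes were called. In DMSO 7 of the 8 members differed among the clones, FTO (edgeR adjusted p = 0.041) and EFR3A (0.0030) among them. Of the 22326 genes tested, 8861 did. The calls came to 5820 genes and 5 of the 8 members for Clone 28 and 4538 genes for Clone 35. For dTAG-13 they came to 6086 genes and 5 members for Clone 28 and 4374 genes for Clone 35. For Clone 39 they came to 7717 genes and 7 members. With the 12 pairs as a block, dTAG-13 against DMSO gave 521 genes and 1 member and the difference of response 1 gene. In DMSO the block put FTO (0.027) and EFR3A (0.021) past the threshold as lower in Clone 28 and FTO as higher in Clone 39 (0.087), with log2 differences as without it (−0.10, −0.13 and 0.08). In dTAG-13 it did so for EFR3A (lower in Clone 28, higher in Clone 39), FTO and USP2-AS1 (higher in Clone 39) and AMPD3 (higher in Clone 28), and it ended no call. Using one treatment's 12 libraries, Clone 28 had 5 of the 8 members in dTAG-13, where 4220 of the 21529 genes tested passed. Without a filter, dTAG-13 against DMSO gave 197 genes and the difference of response 6, and a threshold of 0.05 gave 64. Dropping the filter also ended the calls of PAK1 in Clone 39 (edgeR adjusted p = 0.230 in DMSO, 0.340 in dTAG-13) and of EFR3A in DMSO (0.130). With DMSO libraries only, EFR3A (0.122) and USP2-AS1 (0.110) in Clone 39 no longer passed, at log2 differences of 0.17 and 0.39 as in the fit of all libraries. Values near 0 changed sign for DENND5A in Clone 39 in dTAG-13 (0.0014 by RLE, 0.0034 by DESeq2) and for USP2-AS1 under dTAG-13 with the block (0.0056). The cause was not tested.

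Leaving out each library gave 3 to 6 members differing among clones, where 5565 to 6394 of all genes tested did. It gave 3 to 6 members in Clone 39 in DMSO (5313 to 6341 of all genes), and 66 to 149 genes for dTAG-13 against DMSO. Log2 differences crossed 0 for FTO in Clone 35 in DMSO (−0.038 to 0.069), in Clone 35 in dTAG-13 for EFR3A (−0.0052 to 0.056) and KCNH8 (−0.040 to 0.10), for DENND5A in Clone 39 in DMSO (−0.049 to 0.017) and dTAG-13 (−0.048 to 0.032), and for dTAG-13 against DMSO in KCNH8 (−0.035 to 0.047) and USP2-AS1 (−0.042 to 0.051). AMPD3 in Clones 35 and 39 and QDPR in Clones 28 and 39 kept direction and call under every alternative run. So did KCNH8 in Clone 28 in both treatments and in Clone 39 in dTAG-13.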

Other observations

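ASAP1, which encodes a GTPase-activating protein of the cytoskeleton and is not among the 8 genes, also held a site with 3 mismatches, in an intron on chromosome 8 (chr8:130347256-130347275). In DMSO it stood at 323, 308, 262 and 286 CPM in Clone 28, at 324, 361, 310 and 301 CPM in Clone 35, and at 408, 422, 405 and 405 CPM in Clone 39. Clone 39 was above every library of the other clones in both treatments. The log2 difference was 0.41 ± 0.05 in Clone 39 (edgeR adjusted p = 7.62e-08), −0.31 ± 0.05 in Clone 28 (adjusted p = 5.15e-05) and −0.10 in Clone 35, which did not pass. The remaining site in a gene was in an intron of ENSG00000288597 on chromosome X, which is not described here, and the other 7 sites with 3 mismatches overlapped no annotated gene.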
